A study of Mus musculus with 12 samples.

Results

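The Toll-like receptor system was examined in myeloid-derived suppressor cells (MDSCs) through 10 genes: the co-receptors Cd14 and Ly96, the cell surface receptors Tlr1, Tlr2, Tlr4, and Tlr6, the endosomal receptors Tlr7, Tlr9, and Tlr13, and the adaptor Myd88. They were taken by symbol from a table of 35303 gene symbols, and all 10 were among the 17676 symbols that were tested. Poly(A)-enriched RNA was sequenced in 12 libraries, 4 for each of 3 groups. MDSC was the unmodified control, MDSC-NP-Blk carried blank poly(lactic-co-glycolic acid) nanoparticles (NPs) on the cell surface, and CITED carried NPs loaded with rapamycin, an inhibitor of the kinase mTOR. All 3 groups were of wild-type genotype and came from the marrow of female C57BL/6 mice aged 6 to 10 weeks, which was grown for 3 days with IL-6 and GM-CSF at 40 ng/ml each and sorted for CD11b+Gr1+ cells. All 3 then spent 24 hours in medium with IL-6 at the same dose before RNA was taken. The NPs were attached by click chemistry to sugars that had been labeled with an azide. Whether the unmodified MDSCs were also given the azido sugar is not stated, so that the sugar and the particle cannot be told apart in a comparison with MDSC. The cells had been cultured in vitro, although a tissue label names the CNS, and the sort leaves granulocytic and monocytic cells together. The labels call the replicates biological without saying which animals they came from, so that p-values measure the spread between these libraries.

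Toll-like receptors are membrane proteins with which innate immune cells sense microbial lipids, proteins, and nucleic acids. Cd14 takes up lipopolysaccharide (LPS) and hands it to the complex of Tlr4 with the protein encoded by Ly96 (MD-2). Tlr2 pairs with Tlr1 or Tlr6 to sense bacterial lipopeptides, whereas Tlr7, Tlr9, and Tlr13 sense single-stranded RNA, unmethylated CpG DNA, and bacterial ribosomal RNA inside endosomes. Most of these receptors signal through Myd88 to the transcription factor NF-κB, and MDSCs are known to respond to such signals.

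Between 20604809 and 37855478 counts were assigned to genes per library, and values below are normalized counts, scaled to a library of mean size after correction by the trimmed mean of M values (TMM). The sort markers other than Ly6c1 were abundant. Itgam (CD11b) had a mean of 51965 normalized counts in MDSC, 61403 with blank NPs, and 70031 in CITED, although 91.3% of its sequence is shared with a neighboring gene model. Ly6g (part of Gr1) had 3934, 4615, and 4573. Of the other markers in the list, Ly6c2 had 25702, 33669, and 20232, and Ly6c1 had 33.2, 41.2, and 16.3. At an adjusted p-value below 0.05 in edgeR, 2 of the 4 were higher and 2 lower in CITED than in MDSC. The 4 MDSC-NP-Blk libraries fell into pairs. A chi-square per degree of freedom between libraries was 5.54 for replicates 1 and 4 and 5.77 for replicates 2 and 3, but 15.0 to 20.7 across the pairs, against 4.63 to 9.26 within MDSC and CITED. A trend with transcript length also moved with the groups. Each gene's average log level across the 12 libraries was first subtracted, and the remaining differences were correlated with length. Rank correlations across genes were 0.218 to 0.346 in MDSC, −0.422 to 0.0922 with blank NPs, and −0.341 to −0.187 in CITED. They compare libraries with each other, and a positive value does not mean that expression itself rose with length. The part of this trend in the results was tested by a correction for length. No 2 libraries of a group agreed within sampling noise.

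Gene models are those of GENCODE release 39 on GRCm39. Ly96 lies on chromosome 1 at 16758275 to 16779961. Tlr1 and Tlr6 are neighbors on chromosome 5, at 65082022 to 65090941 and 65108704 to 65203497. Tlr2 lies on chromosome 3 at 83743576 to 83749074, Tlr4 on chromosome 4 at 66745783 to 66849936, Tlr9 and Myd88 on chromosome 9 at 106099797 to 106104082 and 119165000 to 119170486, and Tlr7 and Tlr13 on chromosome X at 166086758 to 166113605 and 105186810 to 105204533.

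Sequence identity limits how well Tlr1 and Tlr6 can be told apart. Of the 31-base words in the transcript of Tlr1, 20% occur in Tlr6, and 14.1% of those of Tlr6 occur in Tlr1. The share found in any other gene was 9.12% for Tlr7, 1.79% for Ly96, 1.29% for Tlr13, and 0% for the remaining 5 genes. The longest run common to the coding sequences of Tlr1 (2388 bases) and Tlr6 (2421 bases) spans 229 bases, at positions 1468 to 1696 of Tlr1 and 1507 to 1735 of Tlr6, and covers 76 whole codons. It is shown because a read from within it belongs equally to both genes, so that the division of such reads between Tlr1 and Tlr6 is an estimate.
Tlr1 and Tlr6, shared coding run: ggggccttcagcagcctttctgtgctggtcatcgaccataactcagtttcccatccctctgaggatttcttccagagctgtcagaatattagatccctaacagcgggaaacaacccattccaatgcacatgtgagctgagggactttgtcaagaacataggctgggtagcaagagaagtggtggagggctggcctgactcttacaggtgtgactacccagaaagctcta

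The 250 bases upstream of the start sites of Tlr2 and Tlr9 are shown because these receptors moved in opposite directions. Both windows are free of annotated exons. In Tlr2 (chr3:83749075-83749324, minus strand), capitals mark a pair of overlapping matches to a loose form of the NF-κB motif (GGG, any 5 bases, CC) that was added after the sequences were seen, and in Tlr9 (chr9:106099547-106099796, plus strand), they mark the PU.1 motif GAGGAAG and the AP-1 motif TGANTCA.
Tlr2, upstream window: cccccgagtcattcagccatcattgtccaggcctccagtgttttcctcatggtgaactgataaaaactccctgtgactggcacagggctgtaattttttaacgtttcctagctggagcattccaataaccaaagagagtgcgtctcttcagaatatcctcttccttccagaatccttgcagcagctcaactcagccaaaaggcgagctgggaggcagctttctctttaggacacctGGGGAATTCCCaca
Tlr9, upstream window: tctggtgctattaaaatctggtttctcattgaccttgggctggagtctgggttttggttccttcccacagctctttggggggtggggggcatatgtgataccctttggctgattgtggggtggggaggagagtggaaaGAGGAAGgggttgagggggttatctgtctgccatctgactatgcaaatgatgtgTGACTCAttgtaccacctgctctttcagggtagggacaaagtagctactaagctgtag
Matches were searched on both strands for 7 motifs. The loose NF-κB form occurred in 47.8% of 21747 promoter windows of the same length and also upstream of Ly96, Tlr6, and Myd88. The windows of Ly96, Tlr1, Tlr4, Tlr6, Tlr13, and Myd88 overlap annotated exons. Those of Ly96 and Tlr6 lie within the gene spans given above, and those of Tlr1 and Tlr13 reach into them. Each window starts from the canonical transcript. A stricter form (GGG, any 2 bases, TTTCC, in 1.46% of windows), the interferon motif (TTTC, any 2 bases, TTTC, in 3.32%), the E-box CACGTG (6.26%), and the CRE motif TGACGTCA (1.69%) matched none of the 10 genes. AP-1 (6.18%) matched upstream of Cd14 and Tlr9, and PU.1 (10.3%) upstream of Ly96, Tlr9, and Tlr13. These matches describe letters and no binding was measured.

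Most of the 10 genes were higher in CITED than in MDSC. At an adjusted p-value below 0.05 in edgeR's quasi-likelihood test, 8 were higher and 1, Tlr9, was lower, whereas Tlr1 did not pass, beside 44.5% of all genes tested that passed, 22.2% as higher and 22.2% as lower. Cd14 and Ly96 also reached an absolute log2 fold change of 1, the study's threshold for differential expression, beside 9.99% of all genes (3.28% higher and 6.7% lower). The median log2 fold change was 0.63 over the 10 genes and −0.052 over all genes tested. Blank NPs gave 7 higher and 2 lower (Tlr1 and Tlr9), with Tlr13 not passing, beside 38.6% of all genes (19.9% higher and 18.6% lower). Of these, Cd14 alone was differentially expressed, beside 4.74% of all genes (1.88% higher and 2.86% lower), and the medians were 0.43 and −0.027. Both comparisons used the same MDSC libraries, so they are not independent of each other. Without TMM, on library size alone, the median of all genes shifted by −0.27 in CITED and −0.26 in MDSC-NP-Blk relative to MDSC; 8 genes were then higher and 2 lower in CITED, and 5 were higher and 3 (Tlr1, Tlr9, and Tlr13) lower in MDSC-NP-Blk. On that scale 12.6% of the differentially expressed genes in CITED and 12.1% in MDSC-NP-Blk were higher, against 32.9% and 39.7% with TMM. In these bulk libraries, a change in the number of cells of a type and a change in RNA per cell cannot be told apart.

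**Figure D1:**
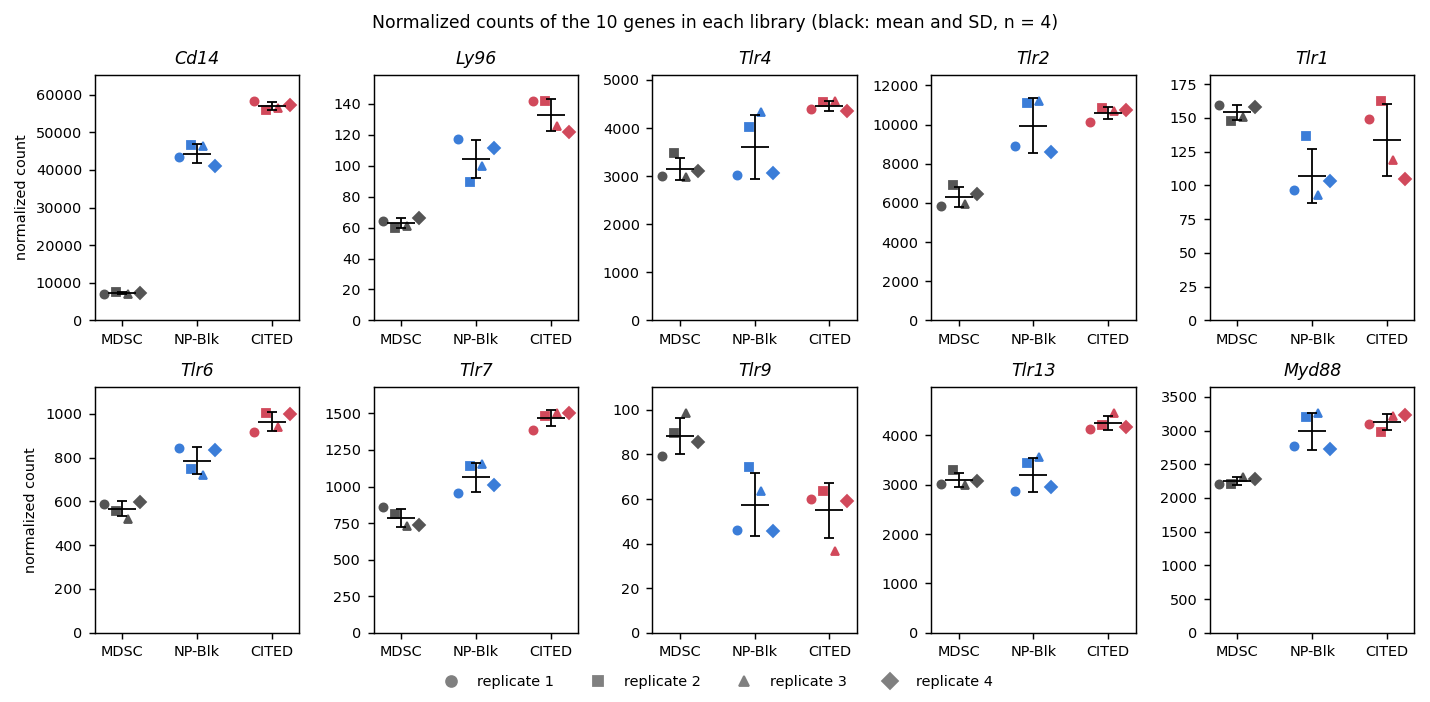
Normalized counts of the 10 genes in each of the 12 libraries, on a linear axis from 0 for each gene, with points for the 4 replicates and black bars for the group mean and SD (NP-Blk is MDSC-NP-Blk). Cd14 stood at 7031 to 7686 in the MDSC libraries and at 41140 to 58376 in the libraries with NPs, whereas Tlr9 was below its MDSC range in all libraries with NPs.

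Cd14 differed from MDSC by more than any of the other 9 genes. It is a gene of 2 exons on chromosome 18, at 36858120 to 36859851 on the minus strand. Its normalized counts were 7153, 7686, 7031, and 7279 in MDSC, 43337, 46518, 46460, and 41140 with blank NPs, and 58376, 56026, 56507, and 57201 in CITED (replicates 1 to 4). The 3 groups did not overlap, and the largest coefficient of variation within a group was 5.89%. Cd14 rose 7.83-fold in CITED (log2 fold change 2.97 ± 0.0476 SE, n = 4 per group, adjusted p = 1.06e-31 in edgeR) and 6.09-fold in MDSC-NP-Blk (2.61 ± 0.0470, adjusted p = 9.11e-30). By p-value it ranked 2 of 17676 genes in CITED and 1 with blank NPs, and by log2 fold change 300 and 396. Leaving out any 1 library gave 2.95 to 2.99 in CITED and 2.58 to 2.64 with blank NPs, and the correction for length gave 2.75 and 2.43. The part of monocyte and neutrophil markers in the change of Cd14 was not tested. The summed level of 8 monocyte and macrophage markers ranged from 27084 to 29052 in MDSC, 34244 to 37182 with blank NPs, and 41867 to 43264 in CITED, where 3 were higher and 4 lower than in MDSC. That of 8 neutrophil markers ranged from 748795 to 843375, 1096660 to 1170230, and 812372 to 925981.

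Ly96, the partner that Tlr4 needs to bind LPS, was far less abundant per kilobase of transcript than Cd14 but moved in the same direction. It had 64.5, 60.0, 60.8, and 66.4 normalized counts in MDSC, 117, 89.6, 100.07, and 111 with blank NPs, and 142, 142, 125, and 122 in CITED, and the 3 groups did not overlap. It rose 2.10-fold in CITED (1.07 ± 0.176, adjusted p = 3.68e-06 in edgeR) and 1.65-fold in MDSC-NP-Blk (0.72 ± 0.177, adjusted p = 0.00111). Ly96 has the shortest transcript of the 10, and the correction for length moved it to 0.72 (adjusted p = 0.000753) in CITED, below the fold threshold, and to 0.40 (adjusted p = 0.0757) in MDSC-NP-Blk. On library size alone it was 0.80 in CITED, also below the fold threshold.

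Tlr2 had the highest level of the receptors per kilobase of transcript. Its normalized counts were 5862, 6917, 5946, and 6475 in MDSC, 8918, 11082, 11207, and 8591 with blank NPs, and 10130, 10844, 10670, and 10725 in CITED. Every library with NPs lay above every MDSC library. Tlr2 rose 1.68-fold in CITED (0.75 ± 0.0662, adjusted p = 9.71e-12 in edgeR) and 1.58-fold in MDSC-NP-Blk (0.66 ± 0.0661, adjusted p = 3.5e-10).

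The 2 partners of Tlr2 parted. Tlr6 had 587, 558, 520, and 598 normalized counts in MDSC, 842, 750, 719, and 834 with blank NPs, and 915, 1003, 940, and 998 in CITED, with no overlap between the 3 groups. It rose by 0.77 ± 0.0770 on the log2 scale in CITED (adjusted p = 1.83e-10 in edgeR) and by 0.47 ± 0.0772 in MDSC-NP-Blk (adjusted p = 5.01e-06). Tlr1 had 160, 147, 151, and 158 normalized counts in MDSC, 96.9, 137, 92.8, and 103 with blank NPs, and 149, 163, 119, and 104 in CITED. Its MDSC-NP-Blk libraries lay below MDSC (−0.51 ± 0.164, adjusted p = 0.0124), whereas its CITED libraries overlapped MDSC (−0.21 ± 0.163, adjusted p = 0.313). On library size alone Tlr1 was also lower in CITED (−0.48, adjusted p = 0.013). The level of Tlr6 per kilobase of transcript was 2.57 ± 0.111 (SD, n = 4) times that of Tlr1 in MDSC, 5.26 ± 0.980 with blank NPs, and 5.22 ± 1.15 in CITED, and the ratios with NPs did not overlap those without, within the limit set by the sequence that both genes share.

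Tlr4, the LPS receptor, had smaller fold changes than its co-receptors, a difference that was not tested. It had 3007, 3480, 2985, and 3105 normalized counts in MDSC, 3015, 4020, 4326, and 3074 with blank NPs, and 4387, 4545, 4565, and 4357 in CITED. All CITED libraries lay above both other groups, whereas MDSC-NP-Blk replicates 1 and 4 lay within the MDSC range. Tlr4 rose 1.42-fold in CITED (0.51 ± 0.0767, adjusted p = 9.73e-07 in edgeR). In MDSC-NP-Blk its log2 fold change of 0.20 ± 0.0767 (adjusted p = 0.0357) did not pass with DESeq2 (adjusted p = 0.0733), with robust estimation (0.21), or without any of MDSC replicates 1, 3, and 4 and MDSC-NP-Blk replicates 2 and 3 (0.0692 to 0.251), and it was −0.060 on library size alone.

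**Figure D2:**
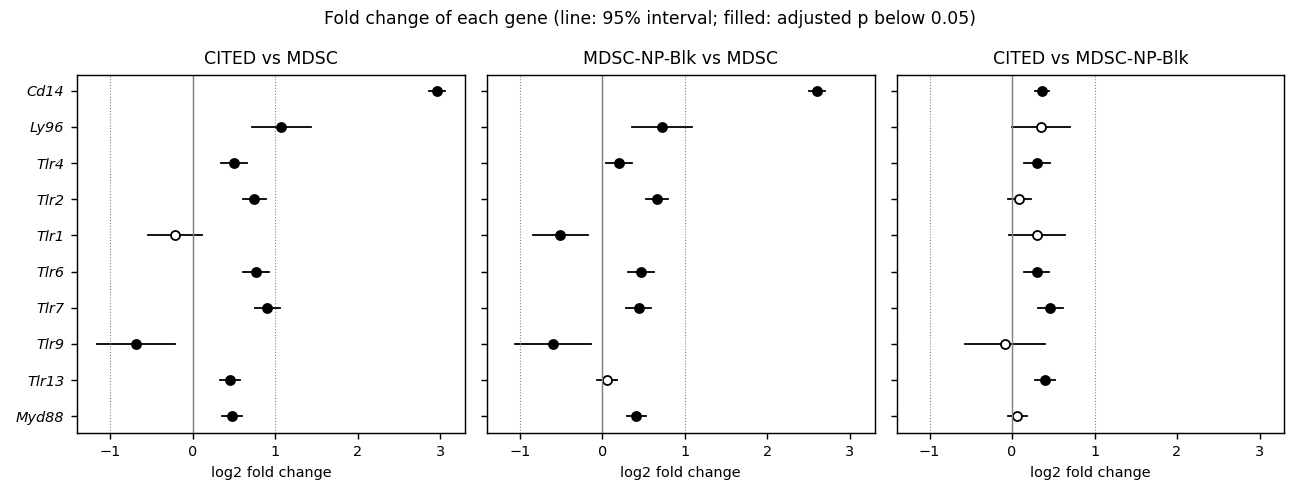
Log2 fold changes of the 10 genes in the 3 comparisons, with 95% confidence intervals as lines, filled points for an adjusted p-value below 0.05, and dotted lines at a change of 1. Cd14 lay at 2.97 and 2.61 against MDSC, and the other intervals lay between −1.15 and 1.43.

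Of the endosomal receptors, Tlr7 rose with both kinds of NP. It had 861, 811, 728, and 739 normalized counts in MDSC, 953, 1141, 1154, and 1010 with blank NPs, and 1387, 1483, 1502, and 1501 in CITED, and the 3 groups did not overlap. It rose 1.87-fold in CITED (0.90 ± 0.0742, adjusted p = 1.68e-12 in edgeR) and 1.36-fold in MDSC-NP-Blk (0.44 ± 0.0745, adjusted p = 8.24e-06), although on library size alone the latter was 0.18 (adjusted p = 0.0502). Tlr13, a receptor that mice have and humans lack, had 3025, 3296, 2996, and 3075 normalized counts in MDSC, 2865, 3437, 3561, and 2963 with blank NPs, and 4138, 4213, 4452, and 4176 in CITED. CITED lay above both other groups, which overlapped. Tlr13 rose 1.37-fold in CITED (0.45 ± 0.0595, adjusted p = 6.06e-08), and its log2 difference between MDSC-NP-Blk and MDSC was 0.051 (95% interval −0.070 to 0.17, adjusted p = 0.534). That difference was −0.21 (adjusted p = 0.00402) on library size alone.

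Tlr9 was the only 1 of the 10 that passed as lower in both comparisons with MDSC. It had 79.4, 89.5, 98.6, and 85.5 normalized counts in MDSC, 45.9, 74.5, 63.6, and 45.6 with blank NPs, and 60.2, 63.6, 36.6, and 59.0 in CITED. All libraries with NPs lay below all MDSC libraries. Tlr9 fell by 0.69 ± 0.230 on the log2 scale in CITED (adjusted p = 0.014 in edgeR) and it fell by 0.60 ± 0.227 in MDSC-NP-Blk (adjusted p = 0.0343). With 33 to 108 raw counts per library the estimate was imprecise. Without CITED replicate 3 the change in CITED was −0.53 (adjusted p = 0.07), and without any of MDSC replicates 2, 3, and 4 and MDSC-NP-Blk replicates 1 and 4 the change in MDSC-NP-Blk did not pass (adjusted p = 0.0521 to 0.103). B cells and plasmacytoid dendritic cells are known for high Tlr9. The summed level of 6 B cell markers was 729 to 925 in MDSC, 651 to 801 with blank NPs, and 320 to 341 in CITED, and 6 of 6 were lower in CITED and 1 of 6 in MDSC-NP-Blk than in MDSC. Siglech, a marker of plasmacytoid dendritic cells, had 3.68 to 11.4 normalized counts in MDSC libraries, 0 to 3.13 with blank NPs, and 0 in every CITED library, which allows up to 3 counts in each. Ccr9, the other marker of these cells in the list, had 0.952 to 11.1, 1.17 to 8.34, and 4.89 to 5.80 normalized counts in the same order, and its log2 fold change in CITED was −0.011 (adjusted p = 1). Of all 8 dendritic cell markers, 1 was higher and 2 lower in CITED, and 0 were higher and 2 lower in MDSC-NP-Blk, with a summed level of 10798 to 11739 in MDSC, 7342 to 7755 with blank NPs, and 9262 to 10252 in CITED. The part of these markers in the change of Tlr9 was not tested.

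Myd88 had 2204, 2201, 2316, and 2282 normalized counts in MDSC, 2778, 3198, 3260, and 2732 with blank NPs, and 3095, 2975, 3211, and 3238 in CITED. Every library with NPs lay above MDSC. The adaptor rose 1.39-fold in CITED (0.48 ± 0.0585, adjusted p = 1.65e-08 in edgeR) and 1.33-fold in MDSC-NP-Blk (0.41 ± 0.0584, adjusted p = 4.22e-07).

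To compare genes with each other, levels were divided by the length of the canonical transcript. In MDSC the order was Cd14 (4441 ± 173 normalized counts per kilobase, SD, n = 4), Tlr2 (2088 ± 163), Tlr4 (764 ± 55.9), Tlr13 (686 ± 30.1), Myd88 (674 ± 17.2), Tlr7 (157 ± 12.6), Tlr6 (130 ± 7.96), Ly96 (83.0 ± 4.04), Tlr1 (50.6 ± 1.89), and Tlr9 (25.4 ± 2.30). Tlr13 and Myd88 differed by less than their SDs. The order of the means was the same in CITED, from Cd14 at 34752 ± 622 and Tlr2 at 3511 ± 105 to Tlr1 at 43.9 ± 8.80 and Tlr9 at 15.8 ± 3.54, and there Tlr13 (940 ± 31.3) and Myd88 (937 ± 36.0) again lay within their SDs. In MDSC-NP-Blk, Tlr4 (877 ± 161) and Myd88 (896 ± 82.4) lay within their SDs of each other. The 10 genes thus spanned levels from that of Tlr9 to that of Cd14 in each group.

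The ratio of Cd14 to Tlr4 per kilobase was 5.82 ± 0.193 in MDSC, 31.4 ± 4.16 with blank NPs, and 32.1 ± 1.27 in CITED, and the ratios with NPs did not overlap those without. The ratio of Ly96 to Tlr4 was 0.109 ± 0.0108, 0.164 ± 0.0469, and 0.161 ± 0.0129. Among the 12 Toll-like receptors in the table, Tlr2 made up 52.2% ± 0.995 of the summed level per kilobase in MDSC, 60.9% ± 0.839 with blank NPs, and 56.7% ± 0.587 in CITED, and these ranges did not overlap. Tlr4 made up 19.1%, 16.1%, and 17.5%, and Tlr13 17.2%, 13.2%, and 15.2%. With the longest transcript of each gene in place of the canonical one, the share of Tlr2 was 39.6%, 48.3%, and 43.9%, in the same order.

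**Figure D3:**
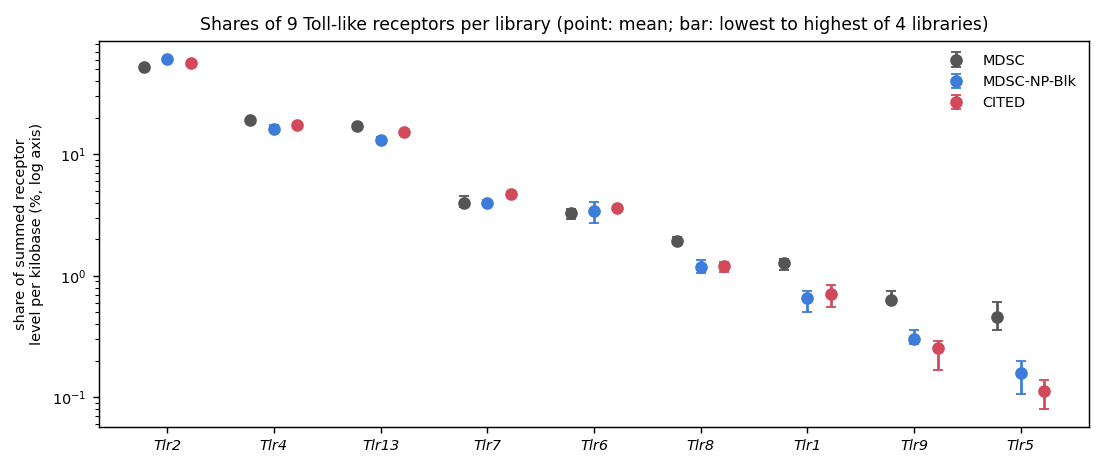
Share of 9 Toll-like receptors in the summed level per kilobase of all 12, in percent on a log axis, with points for the group means and bars from the lowest to the highest of 4 libraries. Tlr2 held 50.9% to 61.6% in all 12 libraries, followed by Tlr4 and Tlr13.

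Rapamycin-loaded and blank NPs were compared directly, which asks what the drug added to the particle. In CITED, 5 of the 10 genes (Cd14, Tlr4, Tlr6, Tlr7, and Tlr13) were higher than in MDSC-NP-Blk and 0 were lower, beside 22% of all genes tested (10.5% higher and 11.4% lower), and 0 were differentially expressed, beside 2.65% (0.651% higher and 2% lower). The median log2 fold change was 0.30, against 0 over all genes. Tlr7 rose by 0.46 ± 0.0734 (adjusted p = 8.28e-06 in edgeR), Tlr13 by 0.40 ± 0.0596 (adjusted p = 2.37e-06), and Cd14 by 0.36 ± 0.0441 (adjusted p = 6.43e-08), and for each the libraries did not overlap. Tlr4 and Tlr6 rose by 0.30 each (adjusted p = 0.00295 and 0.00344), although Tlr4 did not pass with robust estimation (adjusted p = 0.0948). For 5 genes no difference was detectable. The 95% interval of the log2 difference was −0.044 to 0.22 for Tlr2, −0.055 to 0.18 for Myd88, −0.57 to 0.40 for Tlr9, −0.043 to 0.64 for Tlr1, and 0.0017 to 0.70 for Ly96, whose libraries did not overlap (adjusted p = 0.158). In all, 6 of the 10 genes had CITED libraries entirely above MDSC-NP-Blk and 0 below, beside 10.4% and 10.8% of all genes. The corresponding counts against MDSC were 8 above and 1 below for CITED (21.2% and 21.2% of all genes) and 6 above and 2 below for MDSC-NP-Blk (18.1% and 17.4%).

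The pairs within MDSC-NP-Blk bear on these differences. In 7 of the 10 genes (Cd14, Tlr2, Tlr4, Tlr7, Tlr9, Tlr13, and Myd88), replicates 2 and 3 both lay above replicates 1 and 4, and in 2 (Ly96 and Tlr6) both lay below, beside 29.7% and 27.1% of 10556 genes with a mean above 50 normalized counts. The ratio of the pair means was 1.51 for Tlr9, 1.37 for Tlr4, 1.27 for Tlr2, 1.20 for Tlr13, 1.10 for Cd14, 0.877 for Tlr6, and 0.830 for Ly96. Fits with 1 pair at a time were added after the data were seen. Against MDSC, replicates 2 and 3 alone gave 8 genes higher and 0 lower, with Tlr13 passing (0.18, adjusted p = 0.00856 in edgeR) and Tlr1 and Tlr9 not, and replicates 1 and 4 alone gave 6 higher and 2 lower, with Tlr4 at −0.061 and Tlr13 at −0.10. Against replicates 2 and 3, CITED had 4 genes higher, and Tlr4 did not pass (0.098, adjusted p = 0.239). Against replicates 1 and 4, it had 6, with Tlr2 (0.28, adjusted p = 0.000139) and Myd88 (0.18, adjusted p = 0.0205) passing and Tlr6 not (0.20, adjusted p = 0.105). Cd14, Tlr7, and Tlr13 passed as higher in CITED against either pair.

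**Figure D4:**
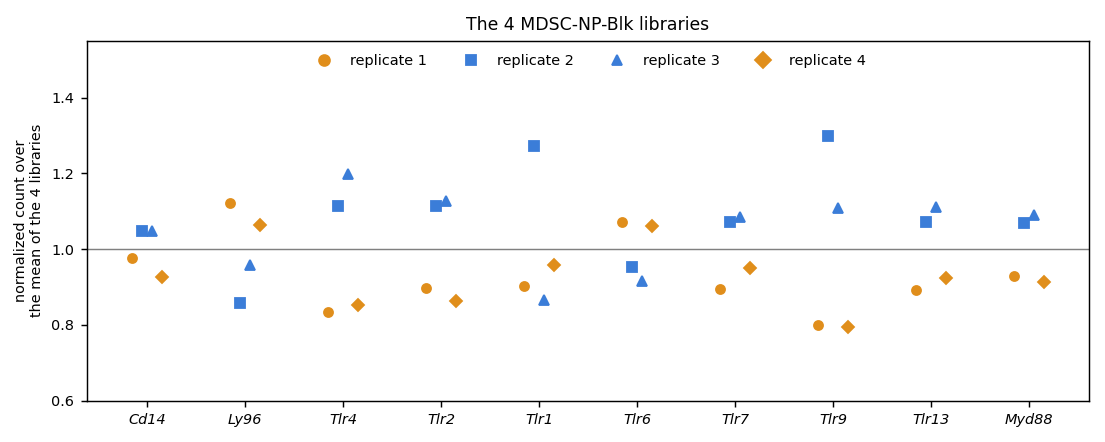
Normalized count of each of the 10 genes in the 4 MDSC-NP-Blk libraries, divided by the mean of the 4, with orange points for replicates 1 and 4 and blue for 2 and 3. Replicates 2 and 3 stood above 1 and 4 for 7 genes, with ratios of the pair means from 1.10 to 1.51, and below them for Ly96 and Tlr6.

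Of the other 5 Toll-like receptors, Tlr8, which also senses RNA, made up 1.92% of the receptor level per kilobase in MDSC, above the 1.27% of Tlr1, and each of the others 0.456% or less. Tlr5, the receptor for flagellin, fell by 1.38 on the log2 scale in CITED (adjusted p = 0.000808 in edgeR) and fell by 1.13 in MDSC-NP-Blk (adjusted p = 0.00534). The others did not pass, and Tlr11 had at most 4 counts in any library. On library size alone, 2 of these 5 were lower in CITED and 2 in MDSC-NP-Blk than in MDSC. The number lower in MDSC-NP-Blk was also 2 with a replicate block and without MDSC-NP-Blk replicate 2.

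Of 14 genes for receptor folding, trafficking, and ligand handling, 7 were higher and 5 lower in CITED than in MDSC (6 and 6 on library size alone), where 22.2% of all genes were higher and 22.2% lower, with a median log2 fold change of 0.21 against −0.052 over all genes, and 6 were higher and 4 lower in MDSC-NP-Blk (3 and 5 on library size alone), where 19.9% of all genes were higher and 18.6% lower, with a median of 0.14. Unc93b1, the chaperone that carries the endosomal receptors out of the endoplasmic reticulum, rose by 1.28 in CITED (adjusted p = 2.51e-21 in edgeR), by 0.80 in MDSC-NP-Blk (adjusted p = 1.11e-15), and by 0.48 between them (adjusted p = 8.27e-10). Dnase2a, a lysosomal nuclease, rose by 1.10 in CITED (adjusted p = 3.17e-17), and Cnpy3, which helps receptors fold, rose by 0.71 in MDSC-NP-Blk (adjusted p = 1.78e-11). Pld4, an endolysosomal nuclease that degrades Tlr9 ligands, fell by 0.96 in CITED (adjusted p = 3.89e-09) and fell by 1.46 in MDSC-NP-Blk (adjusted p = 8.43e-13). Hsp90b1, the chaperone gp96 on which most Toll-like receptors depend, fell by 0.49 in CITED (adjusted p = 1.43e-11). Between CITED and MDSC-NP-Blk, 8 were higher and 4 lower, beside 10.5% and 11.4% of all genes. Lbp, which transfers LPS to Cd14, was lower in CITED (−0.89, adjusted p = 9.34e-12), whereas the scavenger receptor Cd36, which assists Tlr2 with Tlr6, was higher (0.80, adjusted p = 3.71e-10), as was the protease Lgmn (0.78, adjusted p = 1.04e-11). Cd36 was not above MDSC in CITED (−0.15, adjusted p = 0.11 in edgeR). Its mean was 1083 normalized counts in MDSC, 564 with blank NPs, and 978 in CITED.

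**Figure D5:**
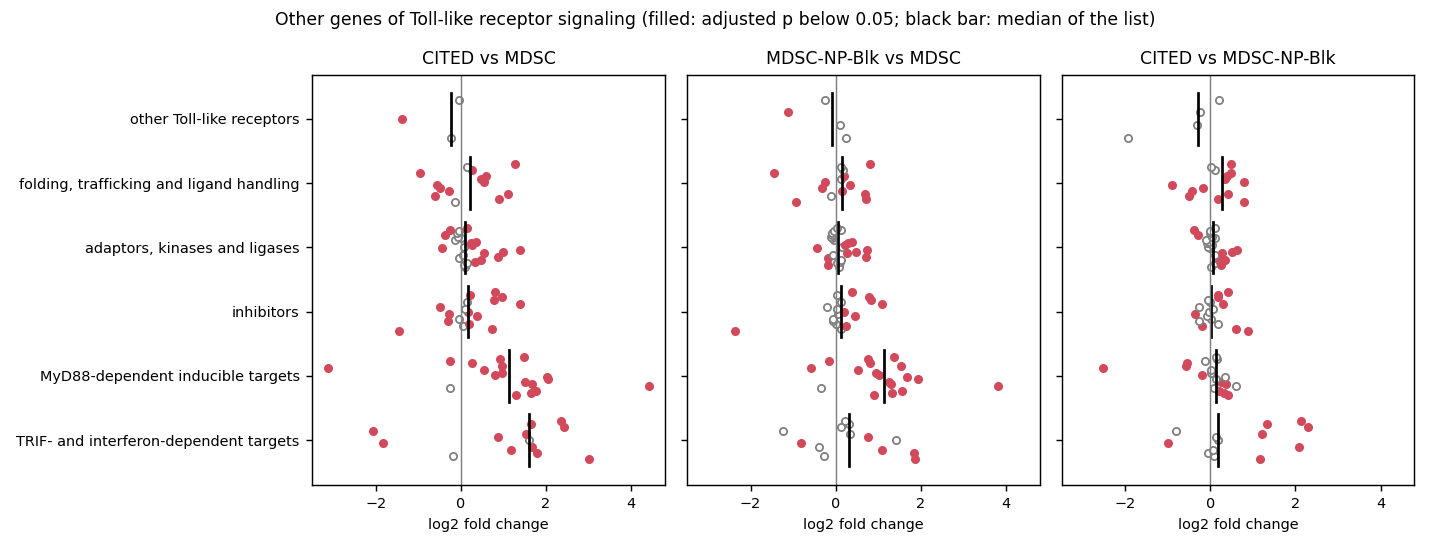
Log2 fold changes of the genes of 6 lists of the Toll-like receptor pathway in the 3 comparisons, 1 point per gene (filled for an adjusted p-value below 0.05), for genes above 10 counts in at least 1 library of a comparison, with the list median as a black bar. Of the 20 MyD88-dependent targets, 15 were higher in CITED and 15 in MDSC-NP-Blk than in MDSC, whereas the adaptors and kinases lay closer to 0.

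Of 24 adaptors, kinases, ligases, and transcription factors of Toll-like receptor signaling, 10 were higher and 3 lower in CITED (5 and 13 on library size alone), with a median of 0.084. In MDSC-NP-Blk, 7 were higher and 3 lower (4 and 13 on library size alone), with a median of 0.052. Of all genes, 44.5% passed in either direction in CITED and 38.6% in MDSC-NP-Blk. Irf7 and Irf5, transcription factors downstream of the endosomal receptors, rose by 1.38 (adjusted p = 1.45e-15 in edgeR) and 1.00 (adjusted p = 1.1e-17) in CITED and by 0.63 (adjusted p = 2.91e-07) and 0.52 (adjusted p = 8.27e-10) between CITED and MDSC-NP-Blk. The kinase Irak2 rose by 0.88 in CITED (adjusted p = 8.91e-16) and 0.72 in MDSC-NP-Blk (adjusted p = 3.66e-13), whereas the kinase Map3k7 (TAK1) fell by 0.45 and fell by 0.43 (adjusted p = 5.43e-06 and 1.38e-05). Between CITED and MDSC-NP-Blk, where 22% of all genes passed, 7 were higher and 2 lower, among them the ligase Traf6 (−0.39, adjusted p = 1.5e-06). Against MDSC-NP-Blk replicates 2 and 3 alone, 4 were higher and 1 lower.

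Of 18 inhibitors of the pathway, 9 were higher and 4 lower in CITED (5 and 8 on library size alone), and 7 were higher and 1 lower in MDSC-NP-Blk (4 and 8 on library size alone), beside 44.5% and 38.6% of all genes that passed in either direction. The medians over the 17 genes with more than 10 counts in a library were 0.16 and 0.12, against −0.024 and −0.017 over all such genes. Socs1, an inhibitor of cytokine and Toll-like receptor signaling, rose by 1.38 in CITED (adjusted p = 2.88e-18 in edgeR) and 1.09 in MDSC-NP-Blk (adjusted p = 3.89e-15), and Tnip1, which binds the NF-κB regulator A20, by 0.95 and 0.78 (adjusted p = 1.22e-16 and 4.69e-14). Cd180, a relative of Tlr4 that is also abundant in B cells, fell by 1.46 in CITED (adjusted p = 1.43e-11) and fell by 2.36 in MDSC-NP-Blk (adjusted p = 1.06e-15), and its level in CITED was above that in MDSC-NP-Blk (0.89, adjusted p = 1.62e-05). Of the list, 6 were higher and 2 lower between CITED and MDSC-NP-Blk, beside 10.5% and 11.4% of all genes, with the inhibitory receptor Cd200r1 higher by 0.61 (adjusted p = 1.38e-10). The number lower was 5 against MDSC-NP-Blk replicates 2 and 3 alone, 0 against replicates 1 and 4 alone, and 1 to 3 when 1 library was left out.

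Genes induced through MyD88 in macrophages were mostly higher with either kind of NP. Of 20, 15 were higher and 2 lower in CITED, with 9 and 1 differentially expressed, and 15 were higher and 2 lower in MDSC-NP-Blk, with 10 and 0. Of all genes, 22.2% were higher and 22.2% lower in CITED, with 3.28% and 6.7% differentially expressed. In MDSC-NP-Blk, 19.9% were higher and 18.6% lower, with 1.88% and 2.86% differentially expressed. The median was 1.13 in both over the 18 genes with more than 10 counts in a library. The cytokine gene Il1b rose by 2.05 in CITED (adjusted p = 6.82e-21 in edgeR) and 1.92 in MDSC-NP-Blk (adjusted p = 1.35e-19), and Zfp36, whose product destabilizes cytokine mRNAs, by 1.49 and 1.36 (adjusted p = 1.4e-20 and 4.59e-19). The neutrophil chemokine gene Cxcl1, the farthest point to the right in the plot of the lists, had 1 to 3 raw counts in MDSC, 19 to 52 with blank NPs, and 35 to 54 in CITED, and its fold change is not precise at the level of MDSC. Nos2, the inducible nitric oxide synthase, went the other way, with −3.12 in CITED (adjusted p = 1.03e-16) and −0.59 in MDSC-NP-Blk (adjusted p = 0.00216). Its MDSC-NP-Blk libraries spanned 1375 to 3731 normalized counts and overlapped the MDSC libraries at 3403 to 3970, and with MDSC-NP-Blk replicates 1 and 4 alone 0 of the 20 genes passed as lower. The number lower in MDSC-NP-Blk was 1 with DESeq2, robust estimation, or the length correction, and 1 to 2 when 1 library was left out. In CITED the number lower was 1 with the length correction. Between CITED and MDSC-NP-Blk, 5 were higher and 4 lower, beside 10.5% and 11.4% of all genes. The median was 0.12, and 8 were higher against replicates 1 and 4 alone. Acod1, which makes itaconate, was higher in CITED (0.41, adjusted p = 1.43e-05), and the acute phase gene Saa3 was lower (−0.55, adjusted p = 3.09e-06).

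The targets of TRIF and interferon, which Tlr4 induces from endosomes, differed between the NPs in 7 of 13 cases. Of the 13 tested, 9 were higher and 2 lower in CITED than in MDSC, with a median of 1.59, and 4 were higher and 1 lower in MDSC-NP-Blk, with a median of 0.31, beside 44.5% and 38.6% of all genes that passed in either direction. The number lower in CITED was 1 with DESeq2 and with robust estimation, and 1 to 2 when 1 library was left out. In MDSC-NP-Blk the number lower was 2 on library size alone and 1 to 2 when 1 library was left out. Ifnb1 was in the table but below the limit for testing. Directly between CITED and MDSC-NP-Blk, 6 were higher and 1 lower, and all 7 were differentially expressed, where 22% of all genes passed and 2.65% were differentially expressed. The chemokine gene Ccl5 rose by 3.01 in CITED (adjusted p = 7.48e-19 in edgeR), by 1.85 in MDSC-NP-Blk (adjusted p = 1.15e-12), and by 1.16 between them (adjusted p = 4.74e-09). Usp18, which removes the ubiquitin-like protein Isg15, rose by 2.34 in CITED (adjusted p = 5.53e-12), and its difference between MDSC-NP-Blk and MDSC was 0.22 (95% interval −0.22 to 0.67, adjusted p = 0.451). Irf1 rose by 0.88 and 0.75 (adjusted p = 2.38e-15 and 3.04e-13), whereas Ifit2 fell by 1.82 and fell by 0.82 (adjusted p = 5.15e-11 and 6.48e-05).

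Genes whose levels followed those of the receptors most closely were found by the root mean square (RMS) difference in log2 normalized count, centered on MDSC, over the 12 libraries and 10555 genes. For Cd14 they were Mpzl2 (RMS 0.258), Fbxo32 (0.288), Cxcl3 (0.295), Egr1 (0.302), and Ccl5 (0.516), and the mean log2 levels of these 5 lay 1.80 to 2.58 above MDSC in MDSC-NP-Blk and 2.53 to 3.22 above it in CITED. For Tlr2 they were Ccn3 (0.0404), Dusp16 (0.0684), Stk17b (0.0772), Klf6 (0.0807), and Cd33 (0.0830), and for Tlr9, Slc7a6 (0.103), Nfxl1 (0.168), Larp4 (0.178), Zmynd19 (0.179), and Gemin4 (0.184). The likeness is over 12 libraries, and whether these genes share regulation was not tested. Even the order of the groups was not always shared. Larp4, Zmynd19, and Gemin4 had their lowest mean in MDSC-NP-Blk (−0.711 for Gemin4, against −0.532 in CITED), whereas Tlr9 had its lowest in CITED.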

How the data were processed

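Counts for 12 libraries were used as deposited. The authors quantified paired-end reads with Salmon 1.4.0 against GENCODE transcripts of GRCm39 with decoys and summed them per gene with tximport in R 4.3.2, without normalization or a filter in the table. Of 35303 symbols, 17676 with at least 2 counts in all were tested in R 4.3.3 with edgeR 4.0.16 (TMM factors, glmQLFit and glmQLFTest, all 12 libraries, group as the only term), and p-values were adjusted by Benjamini and Hochberg over all genes tested, two-sided. A gene passed at an adjusted p-value below 0.05 and was differentially expressed if its absolute log2 fold change also reached 1. The 10 genes, the lists, and the rule for named genes (the 2 lowest p-values in each direction per list and comparison, any list gene reaching both thresholds, and the 5 nearest patterns of Cd14, Tlr2, and Tlr9) were chosen with earlier results of these data known. Genes were called B cell, dendritic, neutrophil, monocyte, T and NK cell, mast cell and basophil, or erythroid markers by short lists; the summed levels were 7342 to 11739 for dendritic, 23.2 to 66.9 for T and NK cell, 7271 to 14419 for mast cell and basophil, and 34.4 to 67.4 for erythroid markers. Alternatives used DESeq2 1.42.0, other factors and filters, a length correction (loess, span 0.5), a replicate block, and fits that left out libraries. The release of GENCODE that the authors used is not given in the sources used here. By counting error alone, a gene without counts in a library may still have a level of up to 3 counts there. The common biological coefficient of variation was 9.03%. The edgeR and DESeq2 calls of the 3 comparisons were tested on simulated data. Figures were drawn with Python 3.11.15 and matplotlib 3.10.9.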

Additional observations from a re-analysis of the deposited data

Results flagged for a closer look

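In 2 of the 30 sets of 4 libraries formed by the 10 genes and 3 groups, 1 library stood apart from the other 3, and chance alone flags about 1 set in 20. Tlr7 in CITED replicate 1 had 1387 normalized counts, against 1483 to 1502 in the other CITED libraries. Tlr9 in CITED replicate 3 had 36.6, against 59.0 to 63.6, and without that library the change of Tlr9 in CITED did not pass the test (−0.53, adjusted p = 0.07 in edgeR).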

How the results depend on the processing

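Of 720 log2 fold changes of the 10 genes under the alternatives, 684 kept their direction and their side of the threshold, 22 no longer passed, 4 newly passed, and 10 reversed. All reversals were of values that had not passed, apart from Tlr4, and their cause was not tested. Against MDSC, MDSC-NP-Blk had Tlr4 at −0.060 and Tlr13 at −0.21 on library size alone, Tlr4 at −0.061 and Tlr13 at −0.10 with replicates 1 and 4 alone, and Tlr13 from −0.0036 (without MDSC-NP-Blk replicate 3) to 0.099 when 1 library was left out. Between CITED and MDSC-NP-Blk, Tlr2 was −0.073 and Myd88 −0.044 with replicates 2 and 3 alone, and Tlr9 was 0.26 with replicates 1 and 4 alone and −0.18 to 0.077 when 1 library was left out, above 0 without MDSC-NP-Blk replicate 2 (0.077) or CITED replicate 3 (0.068).

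A test against the fold change threshold called 722 genes for CITED and 143 for blank NPs, both against MDSC, and 59 between them, where the report's thresholds called 1765, 838, and 469, and it called 1 of the 10 genes, Cd14, in CITED. That count was also 1 on library size alone and with the length correction (2 in the report). Genes lower in CITED numbered 2 on library size alone and 0 to 1 when 1 library was left out, with 0 only without CITED replicate 3. Genes lower in MDSC-NP-Blk numbered 1 to 2 when 1 library was left out and 0 with replicates 2 and 3 alone, and the other list counts moved by more than 1.5 times in 61 of 864 cases. The share of Tlr2 with the longest transcript was 39.6%, 48.3%, and 43.9%.

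The replicate numbers did not pair the libraries: the correlation of deviations between libraries of the same number was −0.0597 to 0.140, and 3 of 12 such pairs were the best match. With a replicate block, 1621, 766, and 441 genes were called in the 3 comparisons, and the counts of the 10 genes were 8 higher and 1 lower, 7 and 2, and 5 and 0, as without it.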
